A study of Homo sapiens with 6 samples.

Results

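The genes described here are those whose mRNA level lay on 1 side of the control in every IGFBP3 knockdown library. The rule took the 4 knockdown libraries together and kept a gene when all 4 values lay below, or all 4 above, both control values. The table holds 11214 named genes that reach an FPKM of 1 in 2 or more of its 6 libraries. Of these, 2915 were lower members (26.0%) and 1469 were higher members (13.1%), while 6830 were neither. FPKM counts the reads assigned to a gene per unit of gene length and of sequencing depth, and differences are given as mean log2(FPKM + 1) of the 4 knockdown libraries minus that of the 2 control libraries. The genes were chosen by these FPKM values, so the differences from Cont are a description without a test. The only comparison tested is that of 72 h with 48 h.

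SAS-Fucci is an established human tongue squamous cell carcinoma line that carries a fluorescent reporter of the cell cycle. Its RNA was sequenced in 3 groups of 2 libraries, each after transfection with 5 nM of a siRNA. The Cont group received a non-targeted Stealth control duplex, and the other groups received IGFBP3 siRNA #1 for 48 h or for 72 h, with fresh medium given to the 72 h cells after 48 h. The time at which the Cont cells were harvested, and whether replicate libraries stem from separate cultures, are not stated in the sources used here, so p values measure only the spread between these libraries. Time after transfection and the change of medium cannot be told apart. The 48 h and 72 h groups share the same Cont libraries, and a single siRNA sequence stands behind all 4 knockdown libraries.

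IGFBP3 encodes a secreted protein that binds insulin-like growth factors, keeps them in the circulation and around cells, and also acts on cells in ways that do not need these factors. A siRNA is a short RNA duplex whose guide strand is loaded into an Argonaute protein and directs the cleavage of the mRNA to which it pairs along its whole length. The guide can also lower mRNAs that pair only with its seed, the bases near its 5′ end, mostly through sites in 3′ UTRs, the stretches of mRNA after the stop codon. Squamous carcinoma cells keep parts of the program of stratified epithelium, such as keratins, desmosomes and cornified envelope proteins.

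The target of siRNA #1 was located in the annotated transcript of IGFBP3, and is shown here because its last bases set which other mRNAs pair with the seed. It lies in the coding sequence at chr7:45916563-45916587 on the minus strand (GRCh38). The mRNA sequence is written from 5′ to 3′, and capitals mark the bases that pair with positions 2 to 8 of the guide, taken as the antisense of a sequence in the study's methods. The methods give 2 sequences against IGFBP3 without their numbers. The Stealth sequence, of the same chemistry as the control duplex and listed before the other, was taken as siRNA #1, and all counts of seed matches rest on that assignment:
IGFBP3: tcccaactgtgacaagaAGGGATTt

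Each library held between 17430750 and 21579500 assigned reads, as estimated from the steps of low FPKM values. All of the epithelial markers but 1 (9 of 10) had an FPKM of at least 1 in every library. Their summed FPKM was 947 to 1095 in Cont, 569 to 627 at 48 h and 890 to 921 at 72 h. Markers of fibroblasts, endothelium, leukocytes, melanocytes and muscle reached at most 1.57. Over all tested genes the median difference was -0.04. Scaling every library to the same median moved it to 0.02 and turned the split of members into 2067 lower and 2437 higher, against 2173 and 2336 after quantile normalization. Under median scaling 70.9% of the lower members and 100% of the higher members were kept, and under quantile normalization 73.3% and 97.7%. The surplus of lower over higher members therefore depends on how the libraries are scaled. In bulk RNA, fewer cells of a kind and less RNA per cell cannot be told apart.

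IGFBP3 itself (ENSG00000146674) had the largest difference of all members. Its FPKM was 24.7 and 23.1 in Cont, 0.261 and 0.258 at 48 h, and 1.52 and 3.25 at 72 h. Values at 48 h were the lowest, and the groups did not overlap. The difference was -3.62, and the gap between the nearest Cont and knockdown libraries was 2.50 on the log2 scale, wider than in any other gene described here. The level rose again between the times, by 1.38 (standard error 0.22, limma adjusted p = 0.0327), although leaving out either 48 h library or either Cont library ended the call (adjusted p 0.0529 to 0.134). The gene model spans 1.90 times the longest reference transcript.

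After IGFBP3, the lower members with the largest differences were IGFL1, S100A9 and NGFR. IGFL1 encodes a small secreted protein of the IGF-like family, and stood at 53.3 and 20.4 FPKM in Cont, 2.09 and 2.41 at 48 h, and 7.92 and 7.28 at 72 h. Although the Cont libraries differed widely from each other, both were above every knockdown library, and the difference was -2.69 over a gene model 2.47 times the longest reference transcript. S100A9, a calcium-binding protein of inflamed epithelium and myeloid cells, had 60.8 and 51.6 in Cont, 20.2 and 9.86 at 48 h, and 16.7 and 15.3 at 72 h, with no order between the times. The receptor gene NGFR stood at 4.31 and 4.76 in Cont, 0.333 and 0.322 at 48 h, and 0.613 and 1.63 at 72 h. NTN4 encodes netrin 4, a laminin-related protein of basement membranes. Its FPKM was 16.1 and 15.5 in Cont, 4.16 and 3.58 at 48 h, and 5.10 and 4.81 at 72 h. Here the libraries of each group lay close together, far from those of Cont, and the difference was -1.64.

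CALML3 encodes a calmodulin-like protein of epithelial cells. Its level was 11.99 and 12.5 FPKM in Cont, 2.85 and 2.44 at 48 h, and 2.997 and 5.55 at 72 h. PTGES3 encodes p23, a co-chaperone of HSP90, and stood at 91.5 and 97.4 in Cont, 30.3 and 26.9 at 48 h, and 31.6 and 38.1 at 72 h, a difference of -1.55. Reads of PTGES3 can be shared with processed copies, of which PTGES3P1 was also a lower member (difference -1.43), so its own share is uncertain. PPP1R14C, an inhibitor of protein phosphatase 1, was at 6.30 and 7.24 in Cont and between 1.33 and 1.97 in the knockdown libraries. DNAJC6, which encodes the clathrin-uncoating protein auxilin, was at 6.67 and 5.40 in Cont and between 1.33 and 1.78 in the knockdown libraries. For both genes the 48 h and 72 h values lay close together. LFNG, a glycosyltransferase that modifies Notch receptors, was at 10.5 and 7.35 in Cont, 1.26 and 1.81 at 48 h, and 3.43 and 4.11 at 72 h. Its level rose between the times by 0.92 (standard error 0.17, limma adjusted p = 0.0434). CXorf49 and CXorf49B (differences -1.60 and -1.68) are near-identical copies and count as 1 observation. RNU5D-1, with a mean of 2.17 reads a library, is too thinly covered to read.

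The higher members were led by SERPINB2, which encodes a plasminogen activator inhibitor of the serpin family. Its FPKM was 28.4 and 12.6 in Cont, 172 and 191 at 48 h, and 122 and 53.9 at 72 h. In this gene the Cont libraries differed about as much as the 72 h libraries did, and none reached a knockdown value (difference 2.62). The annotated span of SERPINB2 overlaps that of SERPINB10, and its gene model is 2.27 times the longest reference transcript. ANXA10, an annexin, stood at 1.84 and 2.08 in Cont, 11.9 and 11.1 at 48 h, and 6.17 and 8.35 at 72 h. CNN2 encodes calponin 2, an actin-binding protein, and had 25.5 and 20.1 in Cont, 74.7 and 76.3 at 48 h, and 71.8 and 64.1 at 72 h. CNN2 had a difference of 1.62, and the comparison of 72 h with 48 h did not pass the test (limma adjusted p = 0.453). The TNF family ligand TNFSF9 (4-1BB ligand) was at 4.90 and 3.79 in Cont and between 12.1 and 15.9 in the knockdown libraries. UACA, which encodes a coiled-coil protein with ankyrin repeats, was at 11.99 and 15.2 in Cont and between 31.6 and 36.8 in the knockdown libraries. ALDH1A3, a retinoic acid-producing dehydrogenase, was at 7.19 and 5.18 in Cont and between 13.01 and 16.1 in the knockdown libraries. None of these 3 genes showed a difference between 48 h and 72 h that passed the test.

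Other higher members followed the time course less evenly. HMGA2, a chromatin protein of embryonic and tumor cells, was at 25.9 and 22.5 in Cont, 83.5 and 93.5 at 48 h, and 56.2 and 41.0 at 72 h. H19, a noncoding RNA, stood at 234 and 219 in Cont, 304 and 259 at 48 h, and 841 and 1480 at 72 h. Nearly all of its difference came from 72 h, and without 72 h replicate 2 the difference over the knockdown libraries was 0.83 in place of 1.30. AC004556.2 on scaffold KI270721.1 followed H19 library by library, from 228 to 241 in Cont and up to 1603 at 72 h, and whether the same reads count toward both was not tested. AL137800.1, a noncoding gene, was at 0.059 and 0 in Cont, 3.78 and 4.02 at 48 h, and 2.49 and 2.17 at 72 h. Its Cont values were under 1, so it met the filter through the knockdown libraries alone. MIR196A1 had a mean of 1.67 reads a library, and its place among the largest differences rests on these few reads.

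**Figure D1:**
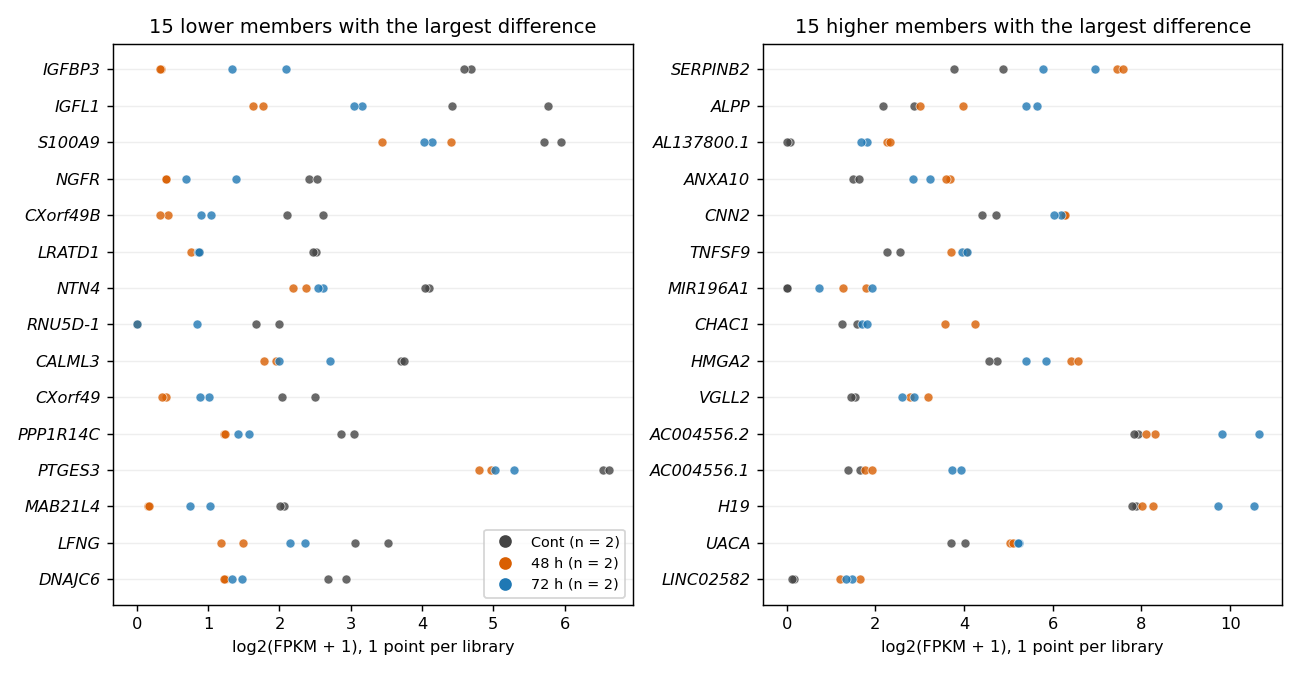
Log2(FPKM + 1) of the 15 lower and the 15 higher members with the largest difference, with 1 point for each of 6 libraries (2 Cont, 2 at 48 h, 2 at 72 h). Both Cont points lie to the right of every knockdown point for lower members and to the left for higher members, as the rule requires, from a gap of 2.50 for IGFBP3 down to 0.11 for AC004556.1.

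Most members differed by little. The median difference was -0.30 among lower members (quartiles -0.46 and -0.20) and 0.25 among higher members (quartiles 0.17 and 0.37). A size of at least 1 was reached by 91 lower and 30 higher members, and a size under 0.2 was found in 727 lower (24.9%) and 490 higher members (33.4%). The gap between the nearest Cont and knockdown libraries was at least 0.25 in 779 lower and 195 higher members. At the edge of the rule, IPO8, which encodes an importin, stood at 10.9 and 10.38 in Cont and between 8.43 and 10.379 in the knockdown libraries, and was just inside. ZNF407, whose lower Cont value of 1.02 was also reached at 48 h, was just outside. RAC1, a GTPase of the actin cytoskeleton, was just inside the higher members, with 106.02 and 98.7 in Cont and between 106.04 and 117 in the knockdown libraries. BAG1, a co-chaperone, was just outside them. The filter was met through the high side alone by 129 lower members, which had no knockdown value of 1 or more, and by 112 higher members, which had no Cont value of 1 or more.

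Of 29 tested genes of desmosomes and tight junctions, 13 were lower (44.8%) and 1 was higher (3.45%). Over all tested genes these shares were 26.0% and 13.1%. The median difference of the list was -0.23 against -0.04 over all tested genes. CLDN4, a claudin of tight junctions, was at 16.2 and 12.5 FPKM in Cont and between 5.47 and 7.04 in the knockdown libraries. DSC3, a desmosomal cadherin of basal epithelium, was at 2.48 and 2.27 in Cont, 0.383 and 0.319 at 48 h, and 0.703 and 1.06 at 72 h. ST14 encodes matriptase, a membrane protease of epithelia, and was at 13.3 and 12.96 in Cont and between 5.22 and 7.11 in the knockdown libraries. For all 3 genes the 48 h libraries were the lowest. TJP1, which encodes the tight junction scaffold ZO-1, was the higher member of this list (difference 0.22). Of 18 tested genes of squamous differentiation, 9 were lower (50%) and none was higher (median difference -0.41). GRHL3, a transcription factor of the epidermal barrier, was at 5.34 and 3.002 in Cont, 0.455 and 0.406 at 48 h, and 2.21 and 1.09 at 72 h. OVOL1, a further epithelial transcription factor, had a difference of -1.28, which was -0.75 without Cont replicate 1. Under median scaling 2 genes of this list were higher members and 6 were lower members. The summed epithelial markers were also lowest at 48 h, and their part in these counts was not tested.

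Keratins, which form the filaments of epithelial cells, were split. Of 13 tested genes, 4 were lower (30.8%) and 3 were higher (23.1%), against 26.0% and 13.1% of all tested genes. KRT17, a keratin of stressed and basal epithelium, was at 164 and 135 in Cont, 37.1 and 37.7 at 48 h, and 87.8 and 92.0 at 72 h. KRT81, a hair keratin, was at 145 and 96.7 in Cont and between 48.7 and 82.8 in the knockdown libraries, and it overlaps KRT86 on the opposite strand. The higher members were the keratins of simple epithelium, KRT18, KRT7 and KRT8, with differences of 0.59, 0.32 and 0.24. KRT18 stood at 514 and 452 in Cont and between 678 and 788 in the knockdown libraries. The intermediate filament gene VIM, found in mesenchymal cells, was at 16.8 and 30.7 in Cont and between 47.8 and 63.4 in the knockdown libraries. Its difference was 1.20, and 0.78 without Cont replicate 1. SNAI2, a transcription factor of the epithelial-mesenchymal transition, was at 15.8 and 15.9 in Cont and between 20.2 and 25.3 in the knockdown libraries. CDH3, which encodes P-cadherin, and ESRP1, a splicing factor of epithelial cells, were lower members (differences -0.60 and -0.47). SNAI1, a further transcription factor of this transition, was also a lower member (difference -0.24). Of the 15 tested cadherins and factors of this transition, 4 were lower and 4 were higher (26.7% each), and the remaining genes were neither.

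Among the genes of the extracellular matrix, 11 of 25 were lower (44%) and 4 were higher (16%), against 26.0% and 13.1% of all tested genes. Their median difference was -0.26. TNC, which encodes tenascin C, was at 4.12 and 3.74 in Cont, 0.873 and 0.799 at 48 h, and 0.625 and 0.791 at 72 h. THBS1, which encodes thrombospondin 1, was at 398 and 382 in Cont and between 155 and 182 in the knockdown libraries. SPP1, which encodes osteopontin, was at 1.85 and 1.66 in Cont and between 0.160 and 0.339 in the knockdown libraries. All 4 knockdown values of TNC and SPP1 were under 1, so these genes met the filter through Cont alone, and SPP1 had only 8 to 16 reads in each knockdown library. The basement membrane collagen COL4A1 was a higher member (difference 0.44, and 0.23 without Cont replicate 1). Among matrix proteases and their inhibitors, 5 of 25 were lower (20%) and 3 were higher (12%), against 26.0% and 13.1% of all tested genes. TIMP3, an inhibitor of metalloproteinases, was at 33.0 and 35.6 in Cont and between 57.5 and 79.6 in the knockdown libraries. ADAMTS15, a protease of proteoglycans, was at 0.905 and 1.10 in Cont, 2.20 and 2.71 at 48 h, and 5.28 and 5.94 at 72 h. SERPINB5, which encodes maspin, was at 29.02 and 24.96 in Cont and between 13.7 and 17.4 in the knockdown libraries. The urokinase receptor gene PLAUR was also a lower member (difference -0.77).

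Of 52 tested genes of actin and cell motility, 22 were lower (42.3%) and 10 were higher (19.2%). In the FPKM as deposited both shares lay above the 26.0% and 13.1% of all tested genes. The counts were 18 lower and 8 higher after quantile normalization and 15 and 13 under median scaling, so the split depends on the scaling. ACTR3, a core subunit of the actin-nucleating Arp2/3 complex, was at 28.2 and 27.7 in Cont, 11.9 and 12.4 at 48 h, and 15.2 and 15.7 at 72 h. ARPC2, a further subunit of the complex, was at 53.7 and 53.9 in Cont and between 30.9 and 35.3 in the knockdown libraries. TPM1, which encodes a tropomyosin that coats actin filaments, was at 11.01 and 11.6 in Cont and between 4.41 and 7.43 in the knockdown libraries. On the higher side, CFL1, the actin-severing cofilin, was at 128 and 117 in Cont and between 205 and 223 in the knockdown libraries. ACTG1, a cytoplasmic actin, was also a higher member (difference 0.41). CFL1 overlaps MUS81 on the opposite strand. Integrins and hemidesmosome genes were mostly neither, with 3 lower (15%) and 2 higher (10%) of 20, shares below those of all tested genes. ITGAV, a lower member, was at 14.7 and 12.6 in Cont and between 6.59 and 9.56 in the knockdown libraries.

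Genes of signaling pathways contributed members in both directions. Of 23 tested YAP and TEAD targets and partners, 11 were lower and 3 were higher, with a median difference of -0.44. LATS2, a kinase that inhibits YAP, was at 5.87 and 5.28 in Cont and between 1.46 and 2.54 in the knockdown libraries. TEAD1, a DNA-binding partner of YAP, was at 10.1 and 8.49 in Cont and between 5.07 and 6.22 in the knockdown libraries. AJUBA, a LIM protein that binds LATS kinases, was a higher member (difference 0.47). Of 17 tested Notch pathway genes, 9 were lower (52.9%) and 3 were higher (17.65%), although 5 and 6 were lower under quantile normalization and median scaling. HES1, a repressor induced by Notch, was at 25.7 and 21.6 in Cont, 9.15 and 10.95 at 48 h, and 18.4 and 16.97 at 72 h. ID2, an inhibitor of helix-loop-helix factors and a BMP target, was at 10.9 and 7.70 in Cont, 1.67 and 2.06 at 48 h, and 5.17 and 3.29 at 72 h. For both genes the 72 h libraries lay between those of 48 h and Cont, and only HES1 passed the test between the times, at 0.76 (standard error 0.11, limma adjusted p = 0.0295). Of 36 tested genes of TGF-β and BMP signaling, 11 were lower (30.6%) and 3 were higher (8.33%), near the 26.0% and 13.1% of all tested genes. The counts were 8 and 6 after quantile normalization and 9 and 7 under median scaling. The receptor gene TGFBR1 was a lower member (difference -0.26), as were BMPR2, SMAD1, BMPR1A and SMAD4 (-0.31, -0.28, -0.16 and -0.08). TGFBR2, which encodes the partner receptor of TGFBR1, was a higher member, at 20.5 and 21.6 in Cont and between 23.3 and 34.9 in the knockdown libraries.

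EGFR, the receptor for EGF, was at 23.4 and 20.7 in Cont and between 32.4 and 38.4 in the knockdown libraries. Of 14 tested genes of the EGFR family and its ligands and regulators, 5 were higher (35.7%) and 3 were lower (21.4%). Over all tested genes these shares were 13.1% and 26.0%. SPRED1, an inhibitor of RAS signaling, was at 3.13 and 2.32 in Cont and between 0.964 and 1.67 in the knockdown libraries. Of the 17 genes of ERK feedback and targets, 4 were lower (23.5%) and 1 was higher (5.88%), shares below the 26.0% and 13.1% of all tested genes. The 2 times lay on opposite sides of Cont in this list, with a median difference of 0.17 at 48 h and -0.51 at 72 h. By limma's test 3 of the 17 were lower at 72 h than at 48 h and none was higher, against 1.86% of all tested genes that were lower. Of 11 tested genes of the IGF system, IGFBP3 apart, 3 were lower (27.3%), 1 was higher (9.09%) and 7 were neither. These shares lay near the 26.0% and 13.1% of all tested genes. The lower members were IGFL1, described above, IRS2, the adaptor of insulin and IGF receptors, and IGF1R, the IGF receptor itself. IRS2 was at 5.34 and 4.79 in Cont and between 2.54 and 3.38 in the knockdown libraries. IGF1R had a difference of only -0.19, which was -0.10 without Cont replicate 1. GRB10, an adaptor that dampens insulin and IGF receptor signaling, was a higher member, at 0.630 and 0.545 in Cont, 2.41 and 1.94 at 48 h, and 1.44 and 1.30 at 72 h. Both Cont values of GRB10 were under 1, so it met the filter through the knockdown libraries alone. Among cytokines, CXCL1, a neutrophil chemoattractant, was at 8.11 and 8.003 in Cont and between 1.74 and 3.25 in the knockdown libraries. CXCL16 was also lower (difference -0.89), and CCL20, a further chemokine, was higher (difference 0.81).

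In the 3 lists of cell cycle genes, 20.4% to 34.6% of the tested genes were lower members and 5.56% to 19.2% were higher members, against 26.0% and 13.1% of all tested genes. DNA replication (29.3% lower) lay near that share and G2 and mitosis (20.4%) below it. Of 26 tested G1 regulators, 9 were lower and 5 were higher. CDKN2C and CDKN2D, inhibitors of the G1 kinases CDK4 and CDK6, and CCNE2, cyclin E2, were lower members (differences -0.95, -0.86 and -0.74). CDKN2B, an inhibitor of the same kinases, was at 3.03 and 2.02 in Cont, 9.25 and 7.11 at 48 h, and 5.54 and 3.67 at 72 h. Members of 1 family of inhibitors thus lay on opposite sides of Cont. Of 58 DNA replication genes, 17 were lower and 4 were higher. The split was 12 and 6 after quantile normalization and 11 and 10 under median scaling, so it depends on the scaling. POLD3, a subunit of DNA polymerase delta, was at 12.9 and 14.4 in Cont and between 7.02 and 8.12 in the knockdown libraries, and PCNA, the sliding clamp, was at 125 and 140 in Cont and between 92.1 and 108 in the knockdown libraries. Of 54 genes of G2 and mitosis, 11 were lower and 3 were higher. Here too the split moved with the scaling, to 10 and 6 after quantile normalization and 6 and 6 under median scaling. AURKA, a mitotic kinase, was at 72.5 and 76.5 in Cont and between 44.6 and 60.9 in the knockdown libraries. MKI67, the Ki-67 proliferation marker, was at 43.1 and 42.4 in Cont and between 28.8 and 36.9 in the knockdown libraries. All values of AURKA and MKI67 stayed clear of Cont, by gaps of 0.25 and 0.20.

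Of 27 tested genes of the ATF4 stress response, 10 were higher (37.0%) and none was lower, against 13.1% and 26.0% of all tested genes. Cells use this response when amino acids are short or the ER is stressed. The median difference of the list was 0.38. MTHFD2, a mitochondrial enzyme of folate metabolism, was at 36.4 and 36.9 in Cont, 86.6 and 72.5 at 48 h, and 54.5 and 52.1 at 72 h. CHAC1, an enzyme that degrades glutathione, was at 1.36 and 1.99 in Cont, 17.9 and 10.9 at 48 h, and 2.27 and 2.49 at 72 h. CHAC1 at 72 h thus lay just above Cont. DDIT4, an inhibitor of mTOR signaling, was at 36.1 and 20.9 in Cont and between 42.8 and 121 in the knockdown libraries, with a difference of 1.11 that was 0.73 without Cont replicate 2. Cytosolic aminoacyl-tRNA synthetases, which charge tRNAs, had 11 of 20 genes higher (55%) and none lower (median difference 0.26). AARS1, the enzyme for alanine, was at 12.6 and 13.9 in Cont, 29.9 and 23.2 at 48 h, and 16.9 and 16.6 at 72 h. CARS1, the enzyme for cysteine, was at 3.05 and 3.12 in Cont, 8.06 and 5.18 at 48 h, and 4.52 and 3.68 at 72 h. These enzymes had a median difference of 0.44 at 48 h and 0.15 at 72 h, and the ATF4 genes of 0.67 and 0.10.

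Of 81 tested cytosolic ribosomal protein genes, 26 were higher (32.1%) and 4 were lower (4.94%), against 13.1% and 26.0% of all tested genes. The median difference was only 0.10. This list was drawn by gene name. Its lower members were RPL7L1, RPS27L and RPL39L, named as like a ribosomal protein, and RPS16 (difference -0.11). The counts were 18 higher and 6 lower after quantile normalization and 41 and 2 under median scaling. RPS13 was at 149 and 142 in Cont and between 194 and 220 in the knockdown libraries, while RPL7L1, a paralog of RPL7, was at 37.7 and 40.8 in Cont and between 18.9 and 20.7 in the knockdown libraries. Mitochondrial ribosomal proteins had 15 higher (21.7%) and 7 lower (10.1%) of 69, with a median difference of 0.10. Their counts were 26 and 7 after quantile normalization and 28 and 5 under median scaling. Subunits of the respiratory chain and ATP synthase had 17 higher (23.9%) and 6 lower (8.45%) of 71, with a median difference of 0.05. For these subunits the counts were 21 and 5 after quantile normalization and 25 and 4 under median scaling. UQCRH, a subunit of complex III, was at 92.1 and 94.5 in Cont and between 131 and 151 in the knockdown libraries. The glycolytic enzyme gene GAPDH, often used as a reference gene, was at 1899 and 1777 in Cont and between 2499 and 2617 in the knockdown libraries. ER chaperones and genes of the unfolded protein response had 11 of 29 lower (37.9%) and 1 higher (3.45%). Over all tested genes these shares were 26.0% and 13.1%. The counts in this list were 7 and 2 both after quantile normalization and under median scaling, and its median difference was only -0.09. SEC24D, a coat protein of vesicles that leave the ER, was at 4.86 and 4.43 in Cont and between 1.78 and 2.76 in the knockdown libraries. Of 11 tested genes of HLA class I and antigen processing, 6 were lower (54.55%) and 1 was higher (9.09%). HLA-B was at 6.19 and 6.79 in Cont and between 2.09 and 2.66 in the knockdown libraries, and reads of HLA-B and HLA-C, a further lower member, can be shared between these similar genes.

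**Figure D2:**
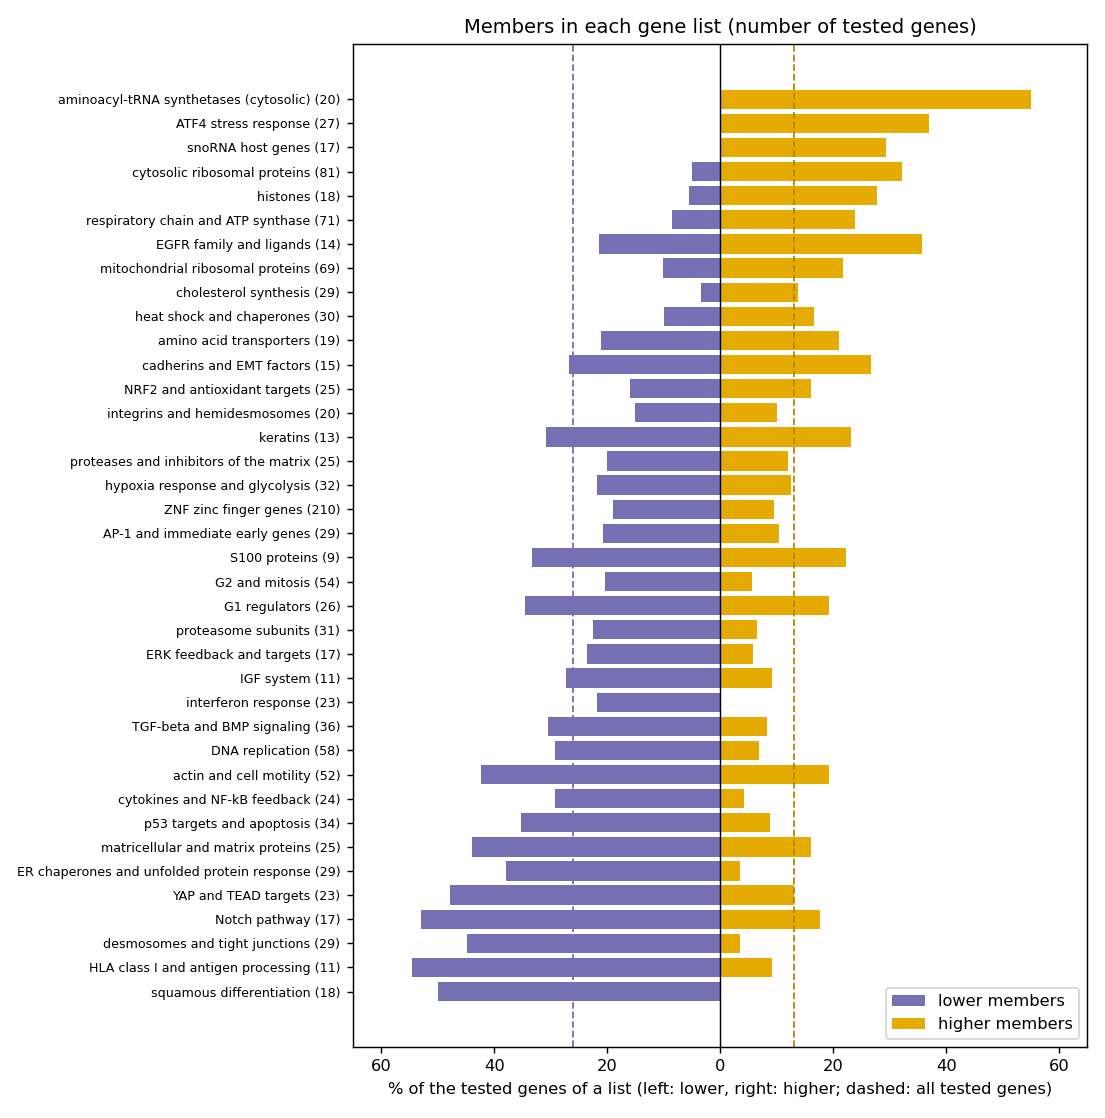
Share of the tested genes of 38 gene lists that were lower (bars to the left) or higher members (bars to the right), in percent, with the number of tested genes in brackets. Dashed lines mark the shares over all tested genes, 26.0% lower and 13.1% higher. Lists of squamous differentiation and of desmosomes and tight junctions lie mostly to the left, and aminoacyl-tRNA synthetases and ATF4 genes only to the right.

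The 72 h libraries were compared with the 48 h libraries over all tested genes. At a Benjamini-Hochberg adjusted p under 0.05, 455 genes (4.06%) differed, of which 246 (2.19%) were higher and 209 (1.86%) were lower at 72 h. Lower members contributed 73 genes (2.50%) to those higher at 72 h and 11 (0.377%) to those lower, and among higher members 12 (0.817%) were higher and 38 (2.59%) were lower. The share of lower members that came back toward Cont was thus close to the share of all genes that rose, and the rule, which asks all 4 libraries to lie on the same side of Cont, itself leaves out genes with a wide spread between the times. Of the members, 2831 lower and 1419 higher genes did not pass this test, which does not show that they held the same level. The size of the difference from Cont was larger at 48 h than at 72 h in 65.5% of lower and 66.2% of higher members, against 60.1% of all tested genes. The calls rest on few libraries. Without 48 h replicate 1 no gene passed, without 48 h replicate 2 there were 15 higher and 19 lower genes, and without 72 h replicate 2 there were 8 and 7. Without 72 h replicate 1 the counts were 89 and 61. Without Cont replicate 1 they were 148 and 99, and without Cont replicate 2 they were 146 and 99, since these libraries also inform the spread.

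Of the lower members that rose between 48 h and 72 h, CRIP2, CEBPD, IGFBP3, KRT17 and HR had the largest changes. CRIP2, a LIM domain protein, was at 23.7 and 18.7 in Cont, 5.17 and 4.65 at 48 h, and 16.1 and 16.1 at 72 h. It rose by 1.54 (standard error 0.11, limma adjusted p = 0.0075), and stayed below both Cont libraries. CEBPD, a transcription factor of the C/EBP family, was at 53.1 and 37.5 in Cont, 13.96 and 10.3 at 48 h, and 36.0 and 31.8 at 72 h, a rise of 1.42 (standard error 0.19, limma adjusted p = 0.0234). At 72 h CEBPD lay only 0.06 below the nearer Cont library on the log2 scale. KRT17, given above, rose by 1.24 (standard error 0.10, limma adjusted p = 0.0098), and HR, a corepressor of hair follicle biology, rose by 1.21 (standard error 0.16, limma adjusted p = 0.0212). Of the lower members that fell further, KRTAP2-3, a hair keratin-associated protein, was at 112 and 118 in Cont, 65.4 and 100 at 48 h, and 40.1 and 30.9 at 72 h. It fell by 1.18 (standard error 0.21, limma adjusted p = 0.0364). SPHK1, a kinase that makes sphingosine 1-phosphate, was at 9.49 and 10.1 in Cont, 7.04 and 9.15 at 48 h, and 4.01 and 2.77 at 72 h, and fell by 1.06 (standard error 0.16, limma adjusted p = 0.0295). In these 2 genes 48 h replicate 2 lay close to Cont.

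**Figure D3:**
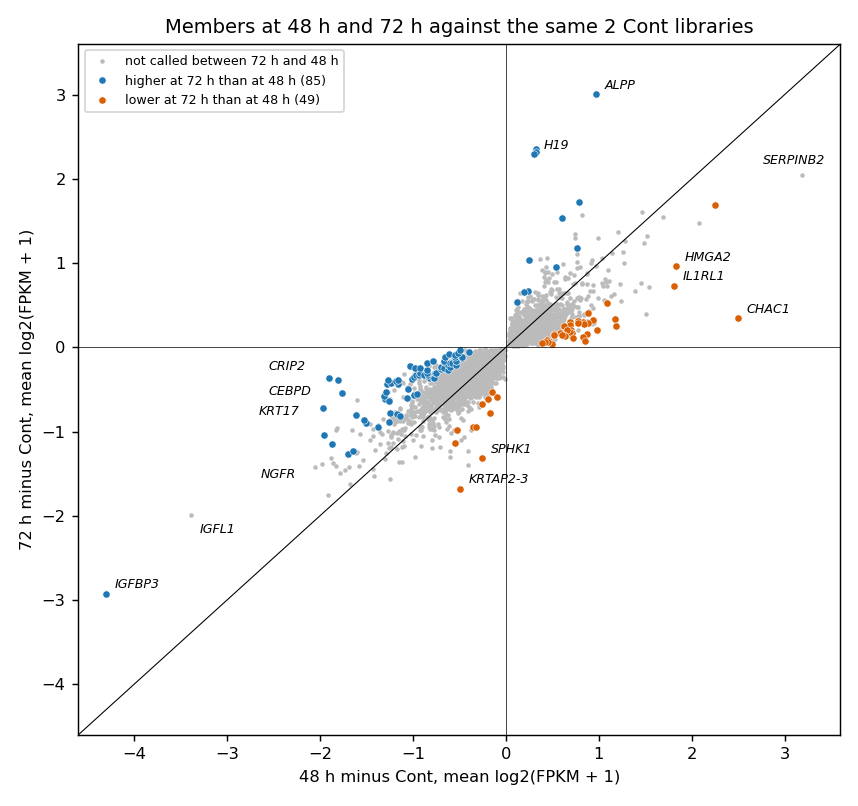
Difference from Cont in mean log2(FPKM + 1) at 48 h (x axis) and at 72 h (y axis) for the 4384 members, 1 point a gene, with the line of equal differences. Both axes use the same 2 Cont libraries, so points spread along the diagonal in part for that reason. Blue points (85) passed the test as higher and orange points (49) as lower at 72 h than at 48 h, and most members lie near the line in grey.

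Of the higher members, ALPP and H19 rose further between the times and CHAC1 and IL1RL1 fell back. ALPP, which encodes placental alkaline phosphatase, was at 6.29 and 3.53 in Cont, 7.02 and 14.7 at 48 h, and 49.0 and 41.4 at 72 h. It rose by 2.04 (standard error 0.34, limma adjusted p = 0.0345), but 48 h replicate 1 lay only 0.14 above Cont. H19 rose by 1.99 (standard error 0.24, limma adjusted p = 0.0179) and ADAMTS15 by 0.94 (standard error 0.11, limma adjusted p = 0.0161). CHAC1 fell by 2.15 (standard error 0.22, limma adjusted p = 0.0141). IL1RL1, which encodes the receptor for interleukin 33, was at 1.54 and 1.43 in Cont, 7.16 and 8.26 at 48 h, and 3.58 and 2.71 at 72 h, and fell by 1.08 (standard error 0.12, limma adjusted p = 0.0152). HMGA2 fell by 0.87 (standard error 0.15, limma adjusted p = 0.0378). Over the whole lists, 10 of 27 ATF4 genes and 5 of 20 aminoacyl-tRNA synthetases were lower at 72 h and none was higher, against 1.86% of all tested genes that were lower. MTHFD2, AARS1 and YARS1, the enzyme for tyrosine, fell by 0.56, 0.62 and 0.78 (limma adjusted p = 0.0357, 0.0439 and 0.0357). Of the keratins 5 of 13, and of the interferon response genes 6 of 23, were higher at 72 h than at 48 h, and none was lower, against 2.19% of all tested genes that were higher. None of these calls was made without 48 h replicate 1.

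**Figure D4:**
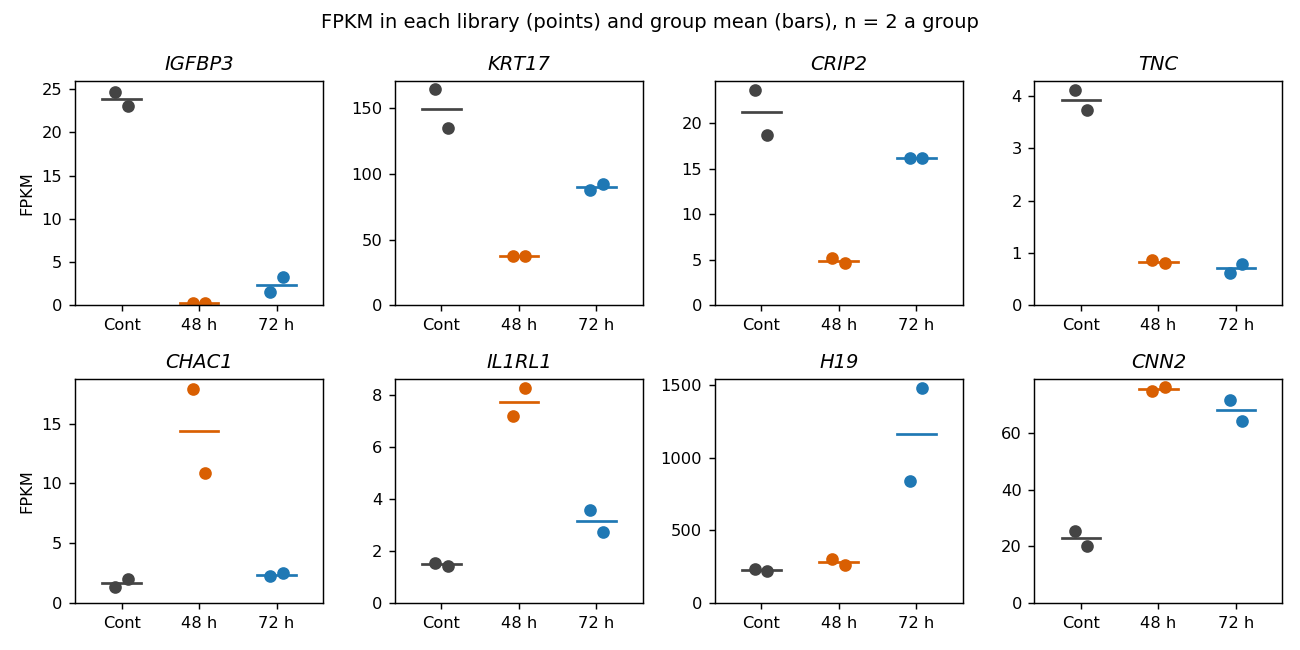
FPKM of 8 members in each library (points, 2 a group) with the group mean (bars), on axes that start at 0. IGFBP3, KRT17 and CRIP2 stood higher at 72 h than at 48 h, TNC and CNN2 did not pass the test between the times, CHAC1 and IL1RL1 were highest at 48 h, and H19 was highest at 72 h.

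The sequence of the 3′ UTR was not used by the rule. The longest annotated 3′ UTR of each gene, where at least 50 bases long, was searched on the sense strand for AGGGATT, the 7 bases that pair with the guide seed, shown in capitals in the target above. A match was present in 19.6% of lower members (525 of 2682 with such a UTR), 7.77% of higher members (104 of 1338) and 9.81% of the genes that were neither, against 12.2% of all tested genes. Among the 200 lower members with the largest difference the share was 25.7%, and among the 200 largest higher members it was 8.08%. As 3′ UTRs of lower members were longer (median 1774 bases against 1392 in all genes), the matches were also counted per length, and were 9.77 per 100 kb in lower members, 4.94 in higher members and 7.07 in all tested genes. The match to the seed of the other siRNA strand, AGTTGGG, was present in 13.2% of lower and 12.6% of higher members and in 12.3% of all tested genes.

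Read by gene, 44.5% of the 1181 genes with a guide seed match were lower members and 8.81% were higher members, against 25.5% and 14.6% of the 8465 genes without it. The share of lower members was 43.8%, 44.7% and 44.4% for genes with a match and a 3′ UTR of under 1000, 1000 to 2999, and 3000 or more bases. Without a match it was 20.7%, 28.1% and 31.2%. Genes with a match to the seed of the other strand alone lay close to the latter, at 22.2%, 27.8% and 28.5%. Where an A followed the 7 bases in the UTR, 50.4% of 238 genes were lower members. The shares of lower members with and without a match also differed under median scaling (35.6% against 17.4%) and quantile normalization (36.0% against 18.6%). Where a gap of at least 0.25 between Cont and knockdown libraries was asked, they were 15.7% against 6.32%. Without each library in turn they were 46.7% to 53.4% against 27.5% to 34.6%. Leaving out a library only relaxes the rule, so these shares could not fall and are no check of the pattern. Match and no match differed in the same sense at both times, with a median difference from Cont of -0.14 and -0.13 at 48 h and 72 h against -0.03 and -0.03. A match is a description of the sequence, and whether the siRNA acts at any of these sites was not tested. No second siRNA was sequenced in these libraries.

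**Figure D5:**
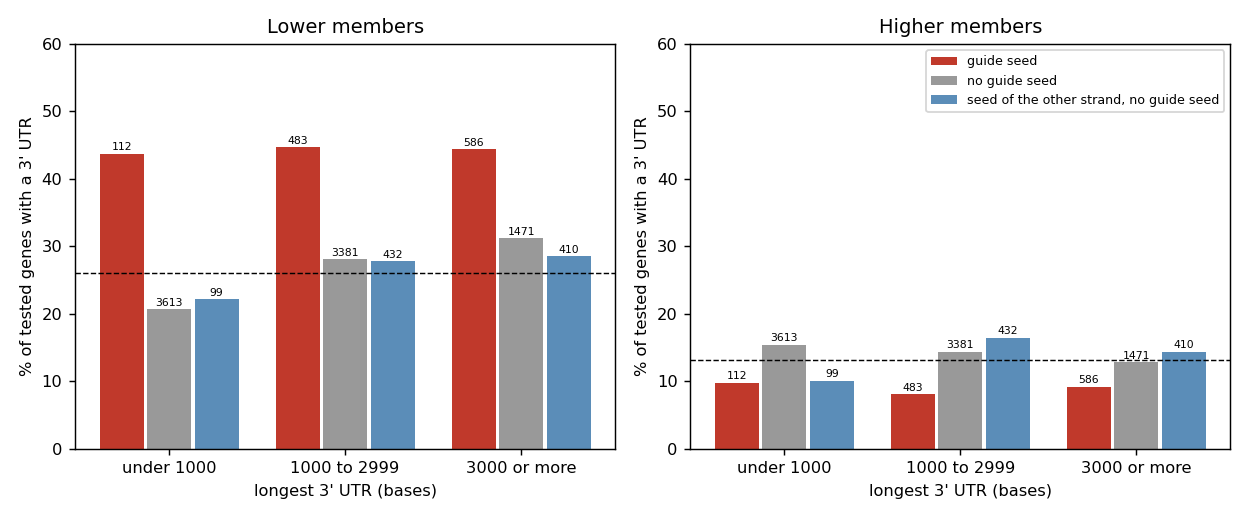
Percent of genes that were lower (left) or higher members (right), by length of the longest 3′ UTR in bases and by seed match, with the number of genes above each bar and the share of all tested genes as a dashed line (26.0% and 13.1%). Genes with a match to the guide seed were lower members in 43.8% to 44.7% of cases in each length class.

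Several of the lower members named above hold a match in the 3′ UTR, among them SPRED1, SERPINB5 and MKI67. The following are shown as examples, taken from the genes with the largest differences and from the lists of adhesion, actin, YAP and ribosomal protein genes. Each line gives the 25 bases that end 1 base after the match, with the match in capitals.
LRATD1: aacattttaataatgttAGGGATTt
MAB21L4: ccttgagggggtagtggAGGGATTt
LATS2: ttttcttactaaattatAGGGATTa
DSC3: aatgaaaatttaattttAGGGATTc
TPM1: tctttacttcttaacttAGGGATTc
ARPC2: gcctcttcaggttcttaAGGGATTc
RPL7L1: cctgacatgatggttaaAGGGATTa
In GRCh38 the windows are chr2:14637868-14637892 on the plus strand (LRATD1), chr2:240886943-240886967 on the minus strand (MAB21L4), chr13:20974559-20974583 on the minus strand (LATS2), chr18:30991420-30991444 on the minus strand (DSC3), chr15:63046740-63046764 on the plus strand (TPM1), chr2:218253997-218254021 on the plus strand (ARPC2) and chr6:42889719-42889743 on the plus strand (RPL7L1). LATS2 holds 2 matches, of which 1 is shown. The TPM1 window lies near the start of the gene's annotated span (chr15:63042632-63071915), in its longest annotated 3′ UTR. The 3′ UTRs of other TPM1 transcripts were not searched, and which transcripts these cells make was not tested. LRATD1, a gene of the LRAT domain family, was at 4.71 and 4.56 in Cont and between 0.688 and 0.835 in the knockdown libraries, with a gap of 1.60, and MAB21L4 was at 3.19 and 3.004 in Cont, 0.114 and 0.131 at 48 h, and 0.679 and 1.04 at 72 h. LRATD1 met the filter through Cont alone, as no knockdown value reached an FPKM of 1. A match was not confined to lower members, as 104 of the 1338 higher members with a searched UTR hold it, among them EGFR, TGFA, SMAD3 and KLF6.

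Other features separated members from the remaining genes less. Protein-coding genes made up 92.5% of lower and 92.2% of higher members and 86.7% of all tested genes. A mean of under 50 reads a library was found in 112 lower (3.84%) and 62 higher members (4.22%), against 6.93% of all tested genes. The median of the mean FPKM was 5.24 in lower and 7.61 in higher members. Genes of chromosome 19 were lower members in 16.2% of cases (103 of 636), the smallest share among chromosomes 1 to 22 and X, and higher members in 17.6% (112). Of the 210 tested genes of ZNF zinc finger proteins, 40 were lower (19.05%) and 20 were higher (9.52%), against 26.0% and 13.1% of all tested genes. The counts were 22 and 55 after quantile normalization and 29 and 47 under median scaling. In promoters (250 bases before to 50 after the start, RefSeq, found for 2232 lower and 1141 higher members), 7 motifs were searched on both strands. The E2F motif TTCCCGC was present in 11.9% of lower and 9.47% of higher members, 11.01% of all tested genes with a promoter and 6.56% of all promoters. The E-box CACGTG was present in 9.10% of lower and 12.4% of higher members, 10.2% of tested genes and 7.43% of all promoters. The AP-1 motif TGACTCA was present in 3.18% and 2.98% of members against 3.05% of tested genes and 4.92% of all promoters, and the CRE motif TGACGTC in 5.60% and 5.78% against 5.80% and 3.63%. The TEAD motif CATTCCA was present in 2.64% and 2.45% of members (2.31% of tested genes, 4.20% of all promoters), the NF-Y motif CCAAT in 35.8% and 36.0% (37.2% and 35.7%) and the C/EBP-ATF element TTGCATC in 1.17% and 1.14% (1.38% and 2.42%).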

How the data were processed

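RNA-Seq of 6 SAS-Fucci libraries was used (2 Cont, 2 at 48 h, 2 at 72 h, grouped by the sample labels). The authors deposited FPKM for 66351 gene models together with the length of each model in bases. Reads were aligned by the authors with HISAT2 2.0.1. The submitters' processing notes also name HTSeq 0.6.1, DESeq2 and the build GRCh38, with no role given. Annotation release and strand handling are not given in the sources used here, so reads of genes that overlap on opposite strands cannot be told apart. Low FPKM values were whole multiples of a step (100% within 0.1 read), which gave the assigned reads.

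Models without a name (6831) were left out. Members and gene lists were chosen with earlier results of these data known. For 72 h against 48 h, log2(FPKM + 1) of the 11214 genes that reach an FPKM of 1 in 2 or more libraries was fitted with limma 3.58.1 (R 4.3.3), with 1 mean per group over all 6 libraries and a variance trend, and p values were adjusted by Benjamini-Hochberg. The script was tested on simulated data. Named genes were, for each direction, the 15 largest differences, IGFBP3, up to 3 of each list, the 5 largest changes between times and the 5 widest gaps at a mean FPKM of at least 10. Sequences came from GENCODE v29 transcripts (GRCh38) and RefSeq promoters. Alternatives were other pseudocounts (0.1, 5), filters, scalings, gaps, thresholds, blocks and leaving out each library. The crossed block, the fit on recovered reads and the other seed counts were chosen after seeing the data. Python 3.11.15, numpy 2.4.6 and pandas 2.3.3 were used.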

Additional observations from a re-analysis of the deposited data

Results flagged for a closer look

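The level differed between the 48 h and the 72 h libraries in the following members by limma's test. As the harvest time of Cont is not stated, the libraries have no control matched in time, and a difference in the effect of the knockdown was not tested. The level was higher at 72 h than at 48 h for IGFBP3 (1.38), KRT17 (1.24), CRIP2 (1.54), CEBPD (1.42) and HR (1.21) among lower members, and for ALPP (2.04), AC004556.2 (2.03), AC004556.1 (2.00), H19 (1.99) and ADAMTS15 (0.94) among higher members. It was lower at 72 h for KRTAP2-3 (-1.18), SPHK1 (-1.06), AP003498.2 (-0.62), NIPAL4 (-0.61) and NR2F1 (-0.60) among lower members, and for CHAC1 (-2.15), IL1RL1 (-1.08), SCG5 (-0.93), HMGA2 (-0.87) and CHRNA1 (-0.84) among higher members. All 20 calls were lost without 48 h replicate 1. AC004556.2 followed H19 library by library, and both are taken as 1 observation. AC004556.1 had only 2 to 4 reads in the Cont and 48 h libraries and 18 and 22 at 72 h.

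Gene models without a name took no part in the report. Of the 1147 that passed the same filter, 211 lay below and 87 lay above both Cont libraries in all 4 knockdown libraries.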

How the results depend on the processing

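The numbers of members moved with these settings. No difference of a named gene changed sign, but for members the rule itself fixes the sign unless the scaling changes. Of the refitted differences of named genes, 552 were classed as moved in size and 1978 as the same. Lower members (2915) numbered 4868 with no filter, 1650 at an FPKM of at least 5, 1740 with a gap of at least 0.1 and 779 with a gap of at least 0.25. Higher members (1469) numbered 961 at an FPKM of at least 5, 663 and 195 with those gaps, 2336 after quantile normalization and 2437 under median scaling. Leaving out a library relaxes the rule, and gave 3170 to 4031 lower and 1657 to 2528 higher members.

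Between 72 h and 48 h, the number of genes higher and lower at 72 h (246 and 209) was 15 and 10 with no filter, 61 and 37 with unnamed gene models included, 147 and 103 with the 48 h and 72 h libraries only, 599 and 554 with voom on the recovered reads, and 9 and 4 at an adjusted p under 0.01. For lower members (73 and 11) these counts were 0 and 0, 11 and 1, 29 and 7, 186 and 22, and 2 and 0 in the same order, and 7 fell with a pseudocount of 5. For higher members (12 and 38) they were 1 and 1, 6 and 5, 11 and 14, 33 and 91, and 1 and 1. Without single libraries, 0 to 148 genes were higher and 0 to 99 lower, with 0 to 31 and 0 to 7 among lower members and 0 to 11 and 0 to 12 among higher members, where a group of 1 library is assumed to vary like the others. At an unadjusted p under 0.05 there were 2838 genes in the full fit. The causes of these changes were not tested.

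Whether the replicate numbers pair the samples is not stated in the sources used here. Same-numbered deviations correlated over genes at -0.00322 (Cont and 48 h), 0.159 (Cont and 72 h) and -0.123 (48 h and 72 h). With 2 libraries a group these values cannot settle the pairing. With the replicate numbers as a block, 104 genes were higher and 73 lower, with 20 and 2 among lower members and 8 and 11 among higher members. Crossing the numbers of 48 h and 72 h gave 230 and 202. The 20 named changes between times kept their side of the threshold in 254 refits and lost it in 121, and none reversed.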
